A study of Rattus norvegicus with 2 samples.

Results

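Macrophages clear proteins, lipids, sugars and dying cells through a small set of surface receptors, and 8 of their genes are described here in rat lung: Cd163, Stab1, Mrc1, Marco, Msr1, Lyve1, Cd36 and Clec7a. The 8 genes were chosen by name among the 42172 genes of the count tables, and 7 of them had at least 1 unique molecular identifier (UMI, the count of 1 captured RNA molecule). Marco had none in either library. The question put to the data was which lung cells carried each receptor, and how its level compared between control lungs and lungs exposed to a gas explosion.

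The study held 2 single-cell libraries of dissociated lung from rats kept under SPF conditions. The control library came from rats not exposed, and the explosion library from rats exposed to a gas explosion. The tissue was digested with enzymes, passed through strainers, cleared of red cells and of dead cells, and made into droplet libraries, so only cells that survived this handling were counted. The labels used here gave no strain, age, time after exposure or number of animals, and did not say whether animals were pooled. With 1 library per group there was no replicate check, so no test was made and no p-value is given. Every interval below is an exact 95% interval for counting error only, and a difference between the libraries cannot be told apart from a difference between the animals or the preparations.

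The libraries stood far apart in depth, and this touches every result. The control library held 21117 barcodes with a median of 4917 UMIs, and the explosion library held 12642 barcodes with a median of 538.5. After filtering, 19231 control and 11845 explosion cells were kept, of which 0 and 5580 had fewer than 500 UMIs. The libraries shared 85 barcodes. Levels are therefore given as CPM, the UMIs of a gene in every 1000000 UMIs of all genes in the same cells, and shares of cells are given raw and after each cell was thinned to 500 UMIs. Cells were grouped without the 8 genes and named "-like" from marker genes that did not include them.

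Scavenger receptors are defined by what they bind rather than by a shared ancestry. Msr1 and Marco are class A scavenger receptors, which bind modified lipoproteins, particles and bacteria, and Cd36 is a class B receptor for fatty acids, oxidised lipids and thrombospondin. Cd163 takes up hemoglobin bound to haptoglobin, and Stab1 (stabilin-1) clears modified lipoproteins and matrix fragments. Mrc1, the mannose receptor, binds mannose-rich sugars, and Clec7a (dectin-1) binds fungal beta-glucans and signals through the kinase Syk and the adaptor Card9. Lyve1 binds hyaluronan and is best known from lymphatic endothelium, but it is also carried by macrophages around vessels. In lung, alveolar macrophages line the air spaces, and interstitial macrophages sit in the tissue around airways and vessels.

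Promoter windows from RefSeq on the GRCr8 build were found for 7 of the 8 genes, each running from 250 bases before to 30 bases after the gene's start. The 4 shown are those of the genes that were at least 2-fold higher in interstitial macrophage-like cells of the explosion library, described further on. Cd163 lies at chr4:158770524-158770803 on the plus strand, Stab1 at chr16:6367330-6367609 on the minus strand, Lyve1 at chr1:174410948-174411227 on the minus strand and Mrc1 at chr17:82157475-82157754 on the plus strand. Each is written 5′ to 3′ on the strand of the gene, with capitals marking GAGGAA or its reverse complement TTCCTC, the core bound by the macrophage factor PU.1 and by other ETS factors.
Cd163: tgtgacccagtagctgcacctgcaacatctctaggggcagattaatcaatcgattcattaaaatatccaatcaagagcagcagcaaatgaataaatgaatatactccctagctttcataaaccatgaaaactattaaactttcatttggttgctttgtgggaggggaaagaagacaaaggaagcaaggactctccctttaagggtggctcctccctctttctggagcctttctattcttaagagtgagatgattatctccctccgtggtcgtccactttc
Stab1: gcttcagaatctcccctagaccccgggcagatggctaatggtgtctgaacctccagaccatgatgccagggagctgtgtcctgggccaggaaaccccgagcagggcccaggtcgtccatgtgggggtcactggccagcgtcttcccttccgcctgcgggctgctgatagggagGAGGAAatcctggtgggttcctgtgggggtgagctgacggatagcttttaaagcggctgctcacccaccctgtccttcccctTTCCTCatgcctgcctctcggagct
Lyve1: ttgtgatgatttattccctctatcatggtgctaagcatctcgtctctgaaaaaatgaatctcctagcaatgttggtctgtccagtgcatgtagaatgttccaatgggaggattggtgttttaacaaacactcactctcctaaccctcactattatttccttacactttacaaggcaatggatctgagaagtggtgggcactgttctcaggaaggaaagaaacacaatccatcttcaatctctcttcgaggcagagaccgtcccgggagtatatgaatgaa
Mrc1: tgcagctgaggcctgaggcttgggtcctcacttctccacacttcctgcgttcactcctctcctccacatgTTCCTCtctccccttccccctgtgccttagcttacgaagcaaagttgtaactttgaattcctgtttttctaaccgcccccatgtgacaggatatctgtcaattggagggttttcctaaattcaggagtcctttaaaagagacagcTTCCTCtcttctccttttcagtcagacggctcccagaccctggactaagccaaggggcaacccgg
GAGGAA was present on either strand in 4 of the 7 windows, those of Stab1, Mrc1, Marco and Cd36, against 25.8% of the 27457 rat promoter windows of the same length. Stab1 and Mrc1 each held 2 copies, while Cd163 and Lyve1 held none. TGCTGA, a site of MAF factors, was present in 1 of the 7 windows, that of Stab1, against 17.2% of all windows, and TGACTCA, the AP-1 site, was present in 0 of 7 against 4.34%. The search covered both strands, neighbouring motifs can share letters at their ends, and a match describes the letters only.

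Most UMIs of Mrc1, Clec7a and Msr1 lay in alveolar macrophage-like cells, which numbered 8700 in the control and 1793 in the explosion library. This class held 92.6% of all Mrc1 UMIs of kept control cells and 84.8% of those of explosion cells. For Clec7a it held 91.9% and 77.9%, and for Msr1 91.4% and 78.3%. Mrc1 stood at 1441 CPM in the control and 2451 CPM in the explosion library, a ratio of 1.70 (interval 1.65 to 1.75). Clec7a stood at 1937 and 3158 CPM, a ratio of 1.63 (1.59 to 1.67), and Msr1 at 204 and 327 CPM, a ratio of 1.60 (1.48 to 1.73). All 3 ratios were above 1 and below 2.

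The whole class was shifted upward by a similar amount. A gene counted as tested where at least 10 UMIs were expected in the smaller library, and as called where it differed by at least 2-fold with an interval that left out 1. Among the 9917 genes tested in alveolar macrophage-like cells the median log2 ratio was 0.61, and 31.4% were called higher and 7.87% lower. Of the 4 receptor genes tested there, 0 were called. Relative to the class median, the log2 ratio was 0.16 for Mrc1, 0.10 for Clec7a and 0.07 for Msr1. With alveolar and interstitial macrophage-like cells joined into 1 class, 3 receptor genes were called higher, Cd163, Stab1 and Lyve1. Mrc1, Clec7a and Msr1 were not among them. Interstitial macrophage-like cells added 124 cells to the 8700 of the control and 179 to the 1793 of the explosion library. The part of this change in mix was not tested.

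**Figure D1:**
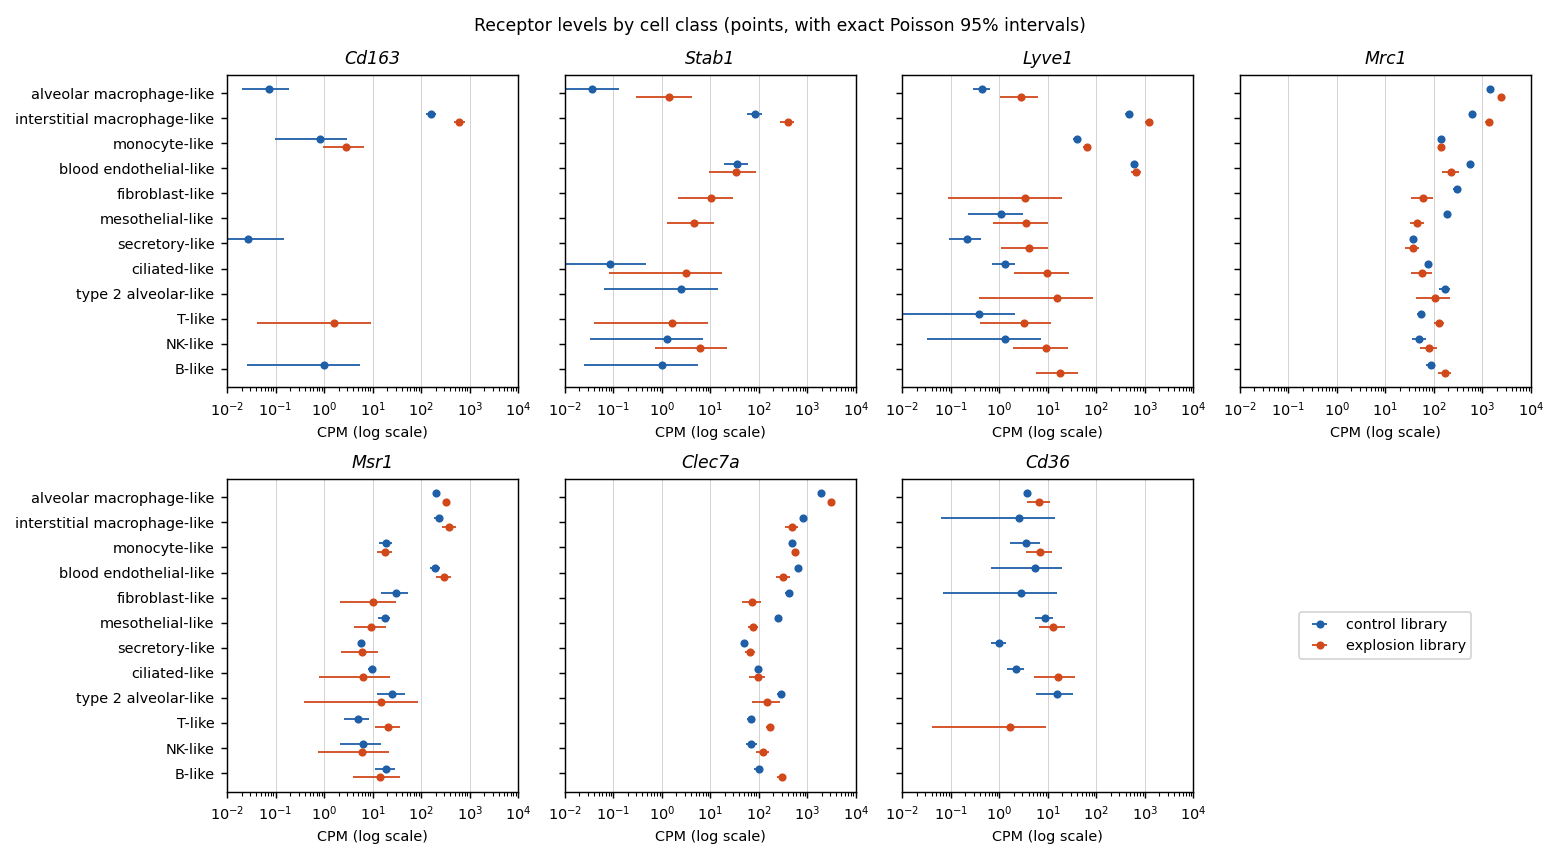
Levels of the receptor genes in the cell classes compared between the libraries, in CPM on a log axis, with exact 95% intervals for counting error. Control and explosion libraries stand side by side, and neutrophil-like cells are not drawn. Mrc1 and Clec7a are highest in alveolar macrophage-like cells, Cd163 in interstitial macrophage-like cells, and Lyve1 in interstitial macrophage-like and blood endothelial-like cells.

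Detection per cell followed depth. Mrc1 had a UMI in 98.7% of control and 88.3% of explosion alveolar macrophage-like cells, but in 52.2% and 70.5% after thinning. Clec7a went from 99.0% and 92.2% to 61.7% and 78.2%, and Msr1 from 61.6% and 29.9% to 9.72% and 13.5%. The order of the libraries thus turned over once depth was made equal, in the direction of the CPM.

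Alveolar macrophage-like cells of the libraries fell into different clusters, and the receptor levels differed among those clusters. Clusters 0, 2 and 25 held 6301, 2083 and 219 control cells and 41, 24 and 2 explosion cells, whereas cluster 3 held 97 control and 1726 explosion cells. Control cells of clusters 0, 2 and 25 had 1583, 1147 and 1418 CPM of Mrc1, and explosion cells of cluster 3 had 2470 CPM. The 97 control cells of cluster 3 had 2100 CPM of Mrc1, between the other control clusters and the explosion cells beside them. They were shallow, with a median of 803 UMIs, against 5488, 7612 and 6024 in control clusters 0, 2 and 25. Explosion cells of cluster 3 had a median of 1155.5, and the part of depth in this split was not tested. Clec7a stood at 1925 CPM and Msr1 at 197 CPM in those 97 cells, close to the control level of the class. Without cluster 0 the log2 ratio of Mrc1 in the class was 1.06, past 2-fold. Cluster 3 of the explosion library gave 2.15-fold against control cluster 2, but 1.56-fold against control cluster 0 and 1.74-fold against control cluster 25.

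The other receptors were scarce in alveolar macrophage-like cells. Cd36 had 201 control and 14 explosion UMIs there, which is 3.68 and 6.66 CPM, and its ratio of 1.81 had an interval of 0.972 to 3.11 that included 1. Cd163 had 4 and 0 UMIs, Stab1 had 2 and 3, and Lyve1 had 24 and 6. Cd163 and Stab1 thus lay at a few molecules in a class of 8700 and 1793 cells.

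Cd163 was a gene of interstitial macrophage-like cells, a class of 124 control and 179 explosion cells that held 88.9% of its UMIs in the control and 90.8% in the explosion library. The class was named from C1qa, C1qb, C1qc, Folr2, Pf4 and other markers, whose summed level was 13820 CPM in control and 16620 CPM in explosion cells. Cd163 had 64 UMIs in control and 59 in explosion cells, or 160 and 613 CPM, a ratio of 3.82 (2.64 to 5.53). Stab1, with 63.5% and 67.9% of its UMIs in this class, had 33 and 38 UMIs, or 82.7 and 395 CPM, a ratio of 4.77 (2.91 to 7.85). Both genes were thus about equal in molecules and unlike in level, since the explosion cells held far fewer UMIs in all.

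Lyve1 and Mrc1 were also higher in interstitial macrophage-like cells of the explosion library. Lyve1 had 185 and 119 UMIs, or 464 and 1236 CPM, a ratio of 2.67 (2.10 to 3.37). Mrc1 had 247 and 130 UMIs, or 619 and 1350 CPM, a ratio of 2.18 (1.75 to 2.71). Msr1 had 92 and 37 UMIs, or 231 and 384 CPM, and its ratio of 1.67 (1.11 to 2.47) was below 2-fold. In both libraries the Msr1 level of these cells did not differ from that of alveolar macrophage-like cells beyond counting error, as the intervals overlapped.

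Clec7a was the only receptor gene tested in these cells with a ratio below 1. It had 321 control and 46 explosion UMIs, or 805 and 478 CPM, which is 1.68-fold lower in the explosion library (1.23 to 2.35) and below the 2-fold limit. In all, 4 of the 6 receptor genes tested in interstitial macrophage-like cells were called higher and 0 lower, where 29.2% of the 1873 genes tested were called higher and 18.9% lower. Relative to the class median log2 ratio of 0.39, Stab1 stood at 1.87, Cd163 at 1.55, Lyve1 at 1.03, Mrc1 at 0.74, Msr1 at 0.35 and Clec7a at -1.14. Mrc1 was therefore under 2-fold once the shift of the class was taken off. With cells chosen by a marker gate in place of clusters the log2 ratio of Mrc1 was -0.11, the other way, and Clec7a was called lower at -1.38.

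**Figure D2:**
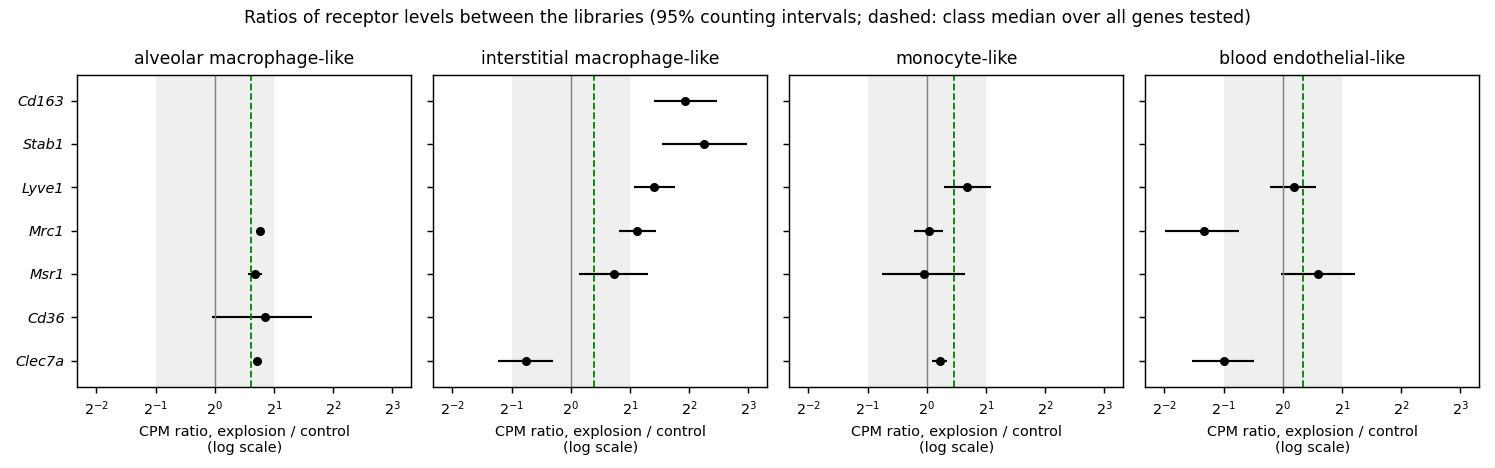
CPM ratio of explosion over control, on a log axis, for the receptor genes tested in alveolar macrophage-like, interstitial macrophage-like, monocyte-like and blood endothelial-like cells. Exact 95% intervals for counting error and the median of all genes tested in the class are marked. In interstitial macrophage-like cells Stab1, Cd163 and Lyve1 lie furthest above the class median, a log2 ratio of 0.39. Clec7a has a ratio of 0.594 there.

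Raw detection differed less between the libraries: the median interstitial macrophage-like cell had 2425.5 UMIs in the control and 466 in the explosion library. Cd163 had a UMI in 20.2% of control and 19.6% of explosion cells. After thinning, which left out 104 explosion cells and kept 124 control and 75 explosion cells, the shares were 5.65% (2.30 to 11.3) and 20.0% (11.6 to 30.8). Stab1 went from 13.7% and 16.8% raw to 4.84% and 18.7% thinned, and Lyve1 from 28.2% and 38.5% to 17.7% and 33.3%. For Cd163 and Stab1 the thinned intervals did not overlap. In B-like cells, which should lack Cd163, 1 of 820 control and 0 of 771 explosion cells had a UMI of it.

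Mrc1, Msr1 and Clec7a need a different reading, because they also had UMIs in cells that should lack them. Mrc1 had a UMI in 9.51% of control and 5.19% of explosion B-like cells, and Clec7a in 94 of 820 and 65 of 771 such cells, at a median of 1158.5 and 320 UMIs per cell. The thinned shares in interstitial macrophage-like cells were 16.1% and 33.3% for Mrc1, 8.87% and 21.3% for Msr1, and 19.4% and 21.3% for Clec7a. The thinned B-like shares were 4.51% and 7.35% for Mrc1 and 5.61% and 11.8% for Clec7a, with 703 of 771 explosion cells left out. In the explosion library the B-like interval for Clec7a, 5.22% to 21.9%, overlapped that of the interstitial class, 12.7% to 32.3%. Summed over the 13 alveolar macrophage markers found, interstitial macrophage-like cells had 2492 CPM in the control and 1600 CPM in the explosion library, with 1 and 2 of the markers at 0. Per 100 UMIs of those markers, these cells held 32.3 and 29.9 Clec7a UMIs, below the 40.5 and 48.4 of alveolar macrophage-like cells. For Mrc1 they held 24.8 and 84.4, against 30.1 and 37.6, so only the control value lay below. Msr1 lay above the alveolar proportion in both libraries. How much alveolar RNA added to the Clec7a and Mrc1 levels, and to their ratios, was not tested.

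**Figure D3:**
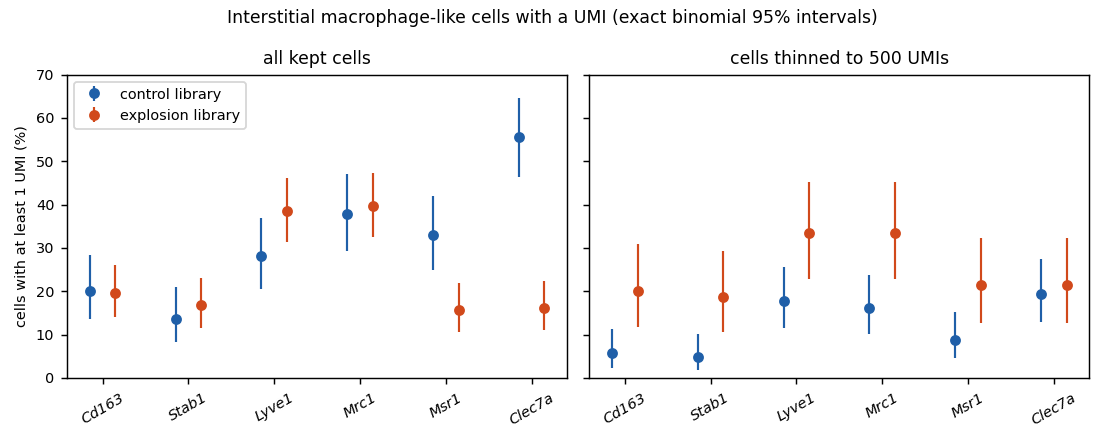
Share of interstitial macrophage-like cells with at least 1 UMI of each receptor gene, in percent, raw and after thinning to 500 UMIs per cell, with exact 95% intervals. The raw Cd163 shares of 20.2% and 19.6% become 5.65% and 20.0% after thinning.

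Within interstitial macrophage-like cells, Cd163 was found with Lyve1, Stab1 and Mrc1 more often than the product of the separate shares. Of the 25 control cells with Cd163, 21 also had Lyve1, where that product gives 7.06, 12 had Stab1, against 3.43, and 19 had Mrc1, against 9.48. Of the 35 explosion cells with Cd163, 23 had Lyve1 against 13.5, 11 had Stab1 against 5.87, and 20 had Mrc1 against 13.9. Stab1 and Lyve1 were together in 12 control cells against 4.80, but in 12 explosion cells against 11.6. Stab1 and Mrc1 were together in 16 control cells against 6.44 and 21 explosion cells against 11.9, and Msr1 and Lyve1 in 25 against 11.6 and 15 against 10.8. Clec7a did not go with Cd163, at 11 cells against 13.9 in the control and 5 against 5.67 in the explosion library. Deep cells hold more of every gene, so these counts describe the cells and carry no test.

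Cells with a UMI of Cd163, Stab1 or Lyve1 made up 42 of 124 control cells, or 33.9% (25.6 to 42.9), and 95 of 179 explosion cells, or 53.1% (45.5 to 60.6). After thinning they were 29 of 124, or 23.4%, and 35 of 75, or 46.7%. A larger number of such cells and a higher level in each cell cannot be told apart from these counts. Their depth was close to that of the remaining cells, with median UMIs of 2398 and 2460 in the control and 462 and 476 in the explosion library.

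The cells with one of these 3 receptors differed from the rest of the class in genes that had no part in choosing them, though the genes shown were picked after their values were seen. Apoe, a lipid carrier made by macrophages, stood at 6929 CPM in control cells with a receptor UMI and 1525 CPM in those without, and at 9372 and 2370 CPM in the explosion library. F13a1, a clotting factor subunit that is also in the monocyte marker list, stood at 381 and 17 CPM in the control and at 485 and 44.7 CPM in the explosion library. The chemokine Ccl24 stood at 936 and 59 CPM in the control, but at 698 and 358 CPM in the explosion library. Pf4 stood at 1511 and 176 CPM in the control and at 466 and 268 CPM in the explosion library. Folr2, the folate receptor, stood at 406 and 109 CPM in the control and at 310 and 291 CPM in the explosion library. Those explosion levels came from 16 and 13 UMIs, with overlapping intervals of 177 to 504 and 155 to 497 CPM. Explosion UMIs were also few for Pf4, at 24 and 12, and for Ccl24, at 36 and 16. The part of the lower depth of the explosion library in these contrasts was not tested.

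Antigen presentation genes lay on the other side. Cd74, the invariant chain of MHC class II, stood at 2584 CPM in control cells with a receptor UMI and 4679 CPM in those without, and at 3085 and 9770 CPM in the explosion library. The class II genes RT1-Ba, RT1-Da and RT1-Db1 were lower in the cells with a receptor UMI in both libraries, at 562 and 1219, 1361 and 2417, and 1598 and 2802 CPM in the control. In the explosion library the same pairs were 718 and 2303, 1300 and 4226, and 698 and 2750 CPM. The complement gene C1qa, which marks the whole class, was alike at 3477 and 3665 CPM in the control and 2639 and 2862 CPM in the explosion library. Mrc1 stood at 999 and 364 CPM in the control and at 1785 and 850 CPM in the explosion library, so both kinds of cell had more of it in the explosion library.

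**Figure D4:**
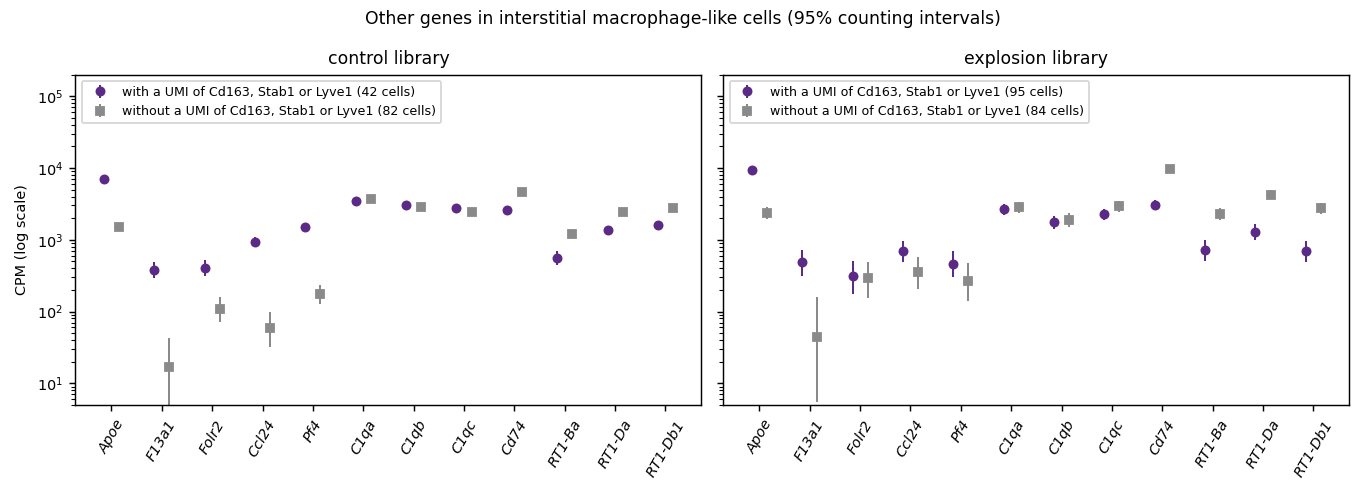
Levels in CPM, on a log axis, of genes in interstitial macrophage-like cells with and without a UMI of Cd163, Stab1 or Lyve1, for each library. Apoe and F13a1 are higher in cells with a receptor UMI, Cd74 and the class II genes are lower, and C1qa is alike.

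Markers of other cells also moved in this class. Summed monocyte markers stood at 2760 CPM in the control and 5381 CPM in the explosion library, summed secretory cell markers at 24020 and 14221 CPM, and all 6 lymphatic endothelial markers were at 0 in both. Summed blood endothelial markers stood at 180 and 405 CPM. The part of these markers in the receptor differences was not tested.

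Monocyte-like cells, 1287 in the control and 3849 in the explosion library, carried Clec7a and little else of the set. Of the 4 receptor genes tested there 0 were called, where 25.7% of 9741 genes were called higher and 9.21% lower. Clec7a stood at 477 and 554 CPM, a ratio of 1.16 (1.07 to 1.27), Mrc1 at 138 and 141 CPM, and Msr1 at 18.5 and 17.9 CPM. All 3 lay under the class median log2 ratio of 0.46. With called doublets kept, Mrc1 and Msr1 were called lower, at -1.35 and -1.56, and thinning put Mrc1 at 1.22. Stab1 had 0 UMIs in both libraries, and Cd163 had 2 and 5.

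Lyve1 in monocyte-like cells came from few of them. It had 101 and 113 UMIs, or 40.6 and 65.3 CPM, a ratio of 1.61 (1.22 to 2.13). Cluster 9, which held 308 control and 949 explosion cells, had 98.3 and 154 CPM, whereas control cluster 13, with 951 cells, had 0 UMIs, which allows up to 2.08 CPM. Explosion cluster 1, with 2895 cells led by Pou2f2 and Nos2, had 9.41 CPM. At a finer clustering (resolution 2), 98 of 101 UMIs in the control library and 79 of 113 in the explosion library lay in 1 cluster of 166 control and 239 explosion cells. That cluster stood at 153 CPM of Lyve1 in the control and 385 CPM in the explosion library, with a UMI in 26.5% and 23.4% of its cells.

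The leading genes of that finer cluster were class II genes, Cd74, Slpi, Cst3, Slamf7, Ifitm1 and Ccr2, a marker in the monocyte list. Of the dendritic cell markers, 5 of 10 were raised in the cluster and 0 were among its leading genes. It had 142 and 370 CPM of Flt3, the growth factor receptor of dendritic cells, and 13226 and 15127 CPM of Cd74, and it was left unnamed. A neighbouring finer cluster with Vcan and Fcnb, genes of classical monocytes, had 7.79 and 51.6 CPM of Lyve1 in 142 and 715 cells. Plasmacytoid dendritic-like cells, too few in the control for a ratio, had 9 control and 28 explosion UMIs of Lyve1, or 49.4 and 146 CPM. The finer clusters were looked at after the values of Lyve1 were seen.

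Blood endothelial-like cells, 153 in the control and 230 in the explosion library, carried Lyve1 at a level that differed little between the libraries. It had 212 and 77 UMIs, or 587 and 666 CPM, a ratio of 1.14 (0.863 to 1.48), and a UMI in 39.2% and 17.8% of the cells before thinning. Cells with a UMI of a fixed lymphatic marker, 6 in the control and 8 in the explosion library, held 73 and 27 of those UMIs, or 2913 and 5318 CPM. Without them Lyve1 stood at 413 and 453 CPM in 147 and 222 cells. Lyve1 was thus highest in the few cells with a lymphatic marker and still present in the others.

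The order of Lyve1 levels differed between the libraries. In the control, endothelial-like cells were first and interstitial macrophage-like cells second, and their intervals of 510 to 671 and 399 to 536 CPM overlapped. In the explosion library interstitial macrophage-like cells were first, with an interval of 1024 to 1479 CPM that lay above the 526 to 833 CPM of endothelial-like cells. Whether the difference between the classes changed with exposure was not tested.

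Stab1 and Msr1 were the other receptors of endothelial-like cells. Stab1, known from sinusoidal endothelium, had 13 and 4 UMIs, or 36.0 and 34.6 CPM. Msr1 stood at 194 and 294 CPM, a ratio of 1.52 (0.977 to 2.32), and was as high in these cells as in alveolar macrophage-like cells, where it stood at 204 and 327 CPM. Cd163 had 0 UMIs in both libraries, and Cd36, known from capillary endothelium, had 2 and 0.

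Most endothelial-like cells with Msr1 had no UMI of Mrc1 or Clec7a. Of the endothelial-like cells with Msr1, 24 of 37 in the control and 25 of 29 in the explosion library had no UMI of Mrc1 or Clec7a, which is 64.9% and 86.2%. Among alveolar macrophage-like cells with Msr1 this was so in 5 of 5357 and 8 of 536, or 0.0933% and 1.49%. The share in endothelial-like cells was not particular to them: it was 16 of 19 and 3 of 4 in B-like and 10 of 13 and 9 of 12 in T-like cells. Where Msr1 and Mrc1 did meet in endothelial-like cells, they did so in 12 control cells against 7.74 from the product of their shares and in 4 explosion cells against 1.51. Per 100 UMIs of the alveolar macrophage markers, endothelial-like cells held 11 Msr1 UMIs in the control and 45.9 in the explosion library, where alveolar macrophage-like cells held 4.27 and 5.01. Msr1 and Lyve1 were found together in 5 control cells, against 14.5, and in 2 explosion cells, against 5.17. UMIs of Msr1 and of Lyve1 were thus seen in largely different cells, at a median of 1316 and 435 UMIs per cell. A receptor can go unseen at such depths, and whether the cells differ was not tested.

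Mrc1 and Clec7a in endothelial-like cells stood near the proportion to alveolar markers seen in alveolar macrophage-like cells. Per 100 alveolar marker UMIs there were 32.3 and 35.1 Mrc1 UMIs, close to the 30.1 and 37.6 of alveolar macrophage-like cells, and 36.1 and 50 Clec7a UMIs, close to 40.5 and 48.4. Mrc1 stood at 567 and 225 CPM, 2.52-fold lower in the explosion library (1.67 to 3.95), and was the 1 of 4 receptor genes called there, where 27.3% of 2450 genes were called higher and 19.4% lower. The alveolar marker sum moved with it, from 1757 to 640 CPM, and after thinning the log2 ratio of Mrc1 was 1.11, the other way. Clec7a stood at 634 and 320 CPM, 1.98-fold lower, just under the limit. In the control, Mrc1 lay in 32 of 153 cells, at a median of 4604 UMIs against 1153 in the cells without it. Clec7a lay in 29 of them, at 4423 against 1209, and 17 cells had both. Explosion cells with Mrc1 numbered 12 of 230, at 639.5 against 429.5. The part of alveolar RNA in these levels was not tested.

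**Figure D5:**
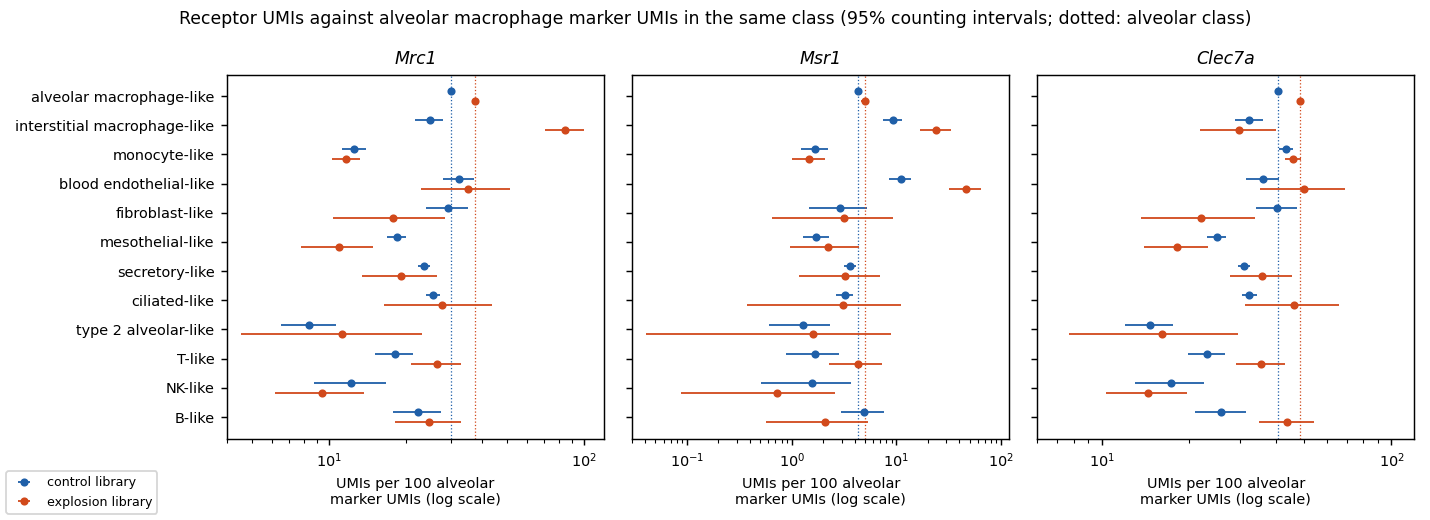
UMIs of Mrc1, Msr1 and Clec7a per 100 UMIs of the fixed alveolar macrophage markers, by cell class and library. Endothelial-like cells lie near alveolar macrophage-like cells for Mrc1 and Clec7a and above them for Msr1, at 11 and 45.9 against 4.27 and 5.01.

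In lymphocytes and structural cells the same 2 genes were called in both directions. Clec7a stood at 99.8 and 299 CPM in B-like cells, a ratio of 2.99, and at 67.8 and 174 CPM in T-like cells, a ratio of 2.56, and Mrc1 stood at 53.1 and 130 CPM in T-like cells, a ratio of 2.45. Among all genes tested, 28.7% were called higher and 9.64% lower in B-like cells, and 34.8% higher and 7.84% lower in T-like cells. In fibroblast-like cells Mrc1 stood at 301 and 58.5 CPM, 5.14-fold lower, and Clec7a at 413 and 72.3 CPM, 5.71-fold lower. In mesothelial-like cells Mrc1 was 4.13-fold lower, at 189 and 45.7 CPM, and Clec7a 3.35-fold lower, at 255 and 76.2 CPM. Among all genes tested, 27.4% were called higher and 15.1% lower in fibroblast-like cells, and 29.8% higher and 11.7% lower in mesothelial-like cells. Per 100 alveolar marker UMIs, Mrc1 stood at 22.3 and 24.7 in B-like, 18.1 and 26.5 in T-like, 29.3 and 17.9 in fibroblast-like and 18.4 and 10.9 in mesothelial-like cells, and the marker sums moved in the direction of Mrc1 in all 4 classes. The sums went from 385 to 684 CPM in B-like, 293 to 490 CPM in T-like, 1028 to 327 CPM in fibroblast-like and 1023 to 418 CPM in mesothelial-like cells. Their part in these differences was not tested. With cells chosen by a marker gate in place of clusters, the log2 ratios of Clec7a were -0.52 in B-like and -0.56 in T-like cells and that of Mrc1 was -0.59 in T-like cells, the other way. After thinning, Mrc1 in fibroblast-like cells had a log2 ratio of 0.22, also the other way.

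In the 4 other classes compared, no receptor gene tested was called. Mrc1 and Clec7a were tested in NK-like cells (24.5% of all genes called higher and 7.03% lower), ciliated-like cells (48% and 9.63%) and secretory-like cells (65% and 2.94%), and Clec7a alone in type 2 alveolar-like cells (42.1% and 26.5%). In secretory-like cells, with a class median log2 ratio of 1.52, Mrc1 stood at 37.4 and 36.3 CPM and Clec7a at 49.1 and 67.5 CPM. Neutrophil-like cells, 303 in the control and 22 in the explosion library, were too few for a ratio. In the control they had 415 Clec7a UMIs, or 1155 CPM, below alveolar macrophage-like cells alone, and 179 Mrc1 UMIs, or 498 CPM. Per 100 alveolar marker UMIs they held 63.8 of Clec7a and 27.5 of Mrc1, where alveolar macrophage-like cells held 40.5 and 30.1.

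Cd36 was low everywhere, with 356 control and 48 explosion UMIs in 346 and 48 cells, and never more than 3 UMIs in a cell. It stood at 15.3 CPM in control type 2 alveolar-like cells, from 6 UMIs, at 8.62 and 12.9 CPM in mesothelial-like cells, from 24 and 11 UMIs, and at 3.61 and 6.93 CPM in monocyte-like cells, from 9 and 12 UMIs. In ciliated-like cells it stood at 2.23 and 15.9 CPM, from 26 and 5 UMIs. A near copy listed as LOC120093085, the Cd36 pseudogene, had 166 and 57 UMIs, and the sources used here do not say how reads were split between both.

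Marco, with 0 UMIs, was not detectable in either library. A count of 0 allows up to 0.0215 CPM in the control and 0.333 CPM in the explosion library, or 0.0142% and 0.0237% of barcodes with a UMI, which limits detection and not the share of cells that carry the receptor. Marco is known from alveolar macrophages, and all 8700 control and 1793 explosion cells of that class were at 0. Whether the counting could register its RNA was not tested, so the 0 says nothing on the presence of the receptor.

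Across the 41 sets of cells made by cluster and library, with at least 50 cells each, the receptors fell into 2 patterns. Cd163 and Stab1 had a correlation of 0.87 on the log2(CPM + 10) scale, Stab1 and Lyve1 of 0.79 and Cd163 and Lyve1 of 0.63. Mrc1 went with Clec7a at 0.91 and with Msr1 at 0.91. Mrc1 and Cd163 were at 0.30, and Cd36 was at or under 0.25 with each of the others. The sets share libraries and depth, so these values are descriptions.

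Among all 10778 genes with at least 50 CPM in some set, F13a1 (0.98), Folr2 (0.97) and Kcnt2 (0.96) were most like Cd163. Cd163 stood at 160 and 613 CPM in interstitial macrophage-like cells and at 2.89 CPM or less in other classes of at least 50 cells. Its correlations thus rest mainly on that class, and Folr2 is a marker used to name it. LOC120096689 (0.93), Selp (0.89) and Ccl24 (0.88) were most like Stab1, and F5 (0.85), Fscn1 (0.85) and Selp (0.84) most like Lyve1. Gpnmb (0.94), Pla2g2d (0.93) and Cd33 (0.93) were most like Mrc1. Ch25h (0.93) and Kcnn3 (0.91) came first for Msr1, followed by Mrc1 itself. LOC498276 (0.97), the lysosomal lipase Lipa (0.96) and Cd68 (0.95) were most like Clec7a, while for Cd36 the first gene, Cd59, reached only 0.56.

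Genes of the same pathways were read from 8 fixed lists. Their counts stand beside the shares of all genes tested, which were 31.4% called higher and 7.87% lower in alveolar macrophage-like, 29.2% and 18.9% in interstitial macrophage-like and 25.7% and 9.21% in monocyte-like cells. Among other scavenger receptors, 4 of 10 tested in alveolar macrophage-like cells were called higher and 0 lower, with a median log2 ratio of 0.88 beside 0.61 for all genes. Ager was 5.08-fold and Lrp1, a large endocytic receptor, 3.31-fold higher, Lrp1 at 255 and 845 CPM, while Olr1 (1.27) and Cd14 (1.01) had the lowest ratios. Ager is also a type 1 alveolar marker, and the sum of those markers in this class went from 23.0 to 64.7 CPM. Of the dead cell uptake genes 9 of 15 were called higher and 0 lower, with a median of 1.34. Gas6, which bridges dying cells to their receptors, was 5.32-fold and the integrin Itgav 3.82-fold higher, while Anxa1 stood 1.34-fold and Rac2 1.16-fold lower, under the limit. Gas6 is also an interstitial macrophage marker, and the sum of those markers here went from 545 to 901 CPM. The part of RNA from other cells in these ratios was not tested. The interstitial class had 0 of 4 other scavenger receptors called, and of the dead cell uptake genes 4 of 11 were called higher, among them Itgb5 (4.01-fold) and Elmo1 (3.48-fold), and 2 lower, Anxa1 (2.50-fold) and Rac2 (2.12-fold). In monocyte-like cells the counts were 4 of 10 higher and 0 lower for scavenger receptors, and 8 of 15 higher and 1 lower for dead cell uptake.

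The C-type lectin list, which holds the relatives and signalling partners of Clec7a, had 5 of 9 called higher and 0 lower in alveolar macrophage-like cells, with a median of 1.30. Clec4a1 was 3.85-fold and Clec4a3 3.70-fold higher. Syk stood at 101 and 249 CPM, 2.46-fold higher, Card9 at 27.9 and 52.8 CPM, a ratio of 1.89, Bcl10 at a ratio of 1.36, and Clec12a was 1.24-fold lower. In interstitial macrophage-like cells 5 of 7 were called higher and 0 lower, with a median of 1.51 beside 0.39 for all genes. Syk (3.53-fold), Malt1 (3.63-fold) and Prkcd (4.54-fold) were among them, in the class where Clec7a itself was 1.68-fold lower. How much of that Clec7a level was alveolar RNA was not tested. In monocyte-like cells the count was 4 of 14 higher and 0 lower, a share near the 25.7% of all genes called higher there.

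Heme and iron genes, the setting of Cd163, were split, though alveolar macrophage-like cells held only 4 and 0 UMIs of Cd163 itself. In alveolar macrophage-like cells 3 of 11 were called higher and 3 lower, beside 31.4% and 7.87% of all genes, with a median of -0.18. Hmox1, which breaks down heme, stood at 96.2 and 392 CPM, 4.07-fold higher (3.78 to 4.39). The ferritin chains were lower, Fth1 at 22515 and 7005 CPM (3.21-fold) and Ftl1 at 4303 and 846 CPM (5.09-fold). In interstitial macrophage-like cells 1 of 6 was called higher, Hmox1 at 5.23-fold (2.75 to 10.1, 19 and 24 UMIs), and 3 lower, Fth1 at 9907 and 2607 CPM, Ftl1 (6.69-fold) and Hebp1 (2.74-fold). In monocyte-like cells 4 of 11 were called higher and 4 lower.

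Lipid genes, the setting of Cd36, had 4 of 15 called higher and 1 lower in alveolar macrophage-like cells, near the 31.4% and 7.87% of all genes, with a median of 0.67. Lpl, the lipase that frees fatty acids, stood at 300 and 995 CPM, 3.32-fold higher, and the cholesterol exporter Abca1 was 3.44-fold higher. Fabp4, a fatty acid carrier, was 3.14-fold lower, at 826 and 263 CPM, and Fabp5 stood 1.88-fold lower. The interstitial class had 2 of 9 called higher and 4 lower, with a median of -0.44, and monocyte-like cells 5 of 16 higher and 2 lower. Abca1 (2.14-fold) and Soat1 (2.21-fold) were higher, and Fabp4 (4.73-fold), Fabp5 (6.64-fold), Plin2 (2.94-fold) and Npc2 (2.07-fold) lower. Thbs1, a ligand of Cd36, was too low for a ratio in alveolar macrophage-like cells.

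Opsonin and pattern receptors had 5 of 16 called higher and 1 lower in alveolar macrophage-like cells, near the 31.4% and 7.87% of all genes, with a median of 0.27. C3ar1 was 4.77-fold and Tlr4 2.92-fold higher, Tyrobp, an adaptor of many myeloid receptors, was 2.76-fold lower, at 4957 and 1797 CPM, and Vsig4 stood 1.61-fold lower. The interstitial class had 2 of 11 called higher, Itgam (4.01-fold) and C5ar1 (2.00-fold), and 2 lower, Tyrobp (4.30-fold) and Fcgr3a (2.09-fold), and monocyte-like cells 4 of 16 higher and 1 lower. Of the hyaluronan genes, which share the ligand of Lyve1, 4 of 5 were called higher and 0 lower in alveolar macrophage-like cells. Cd44 stood at 486 and 1368 CPM (2.81-fold), Vcan was 5.58-fold and Layn 2.69-fold higher, and Hyal2 had a ratio of 1.22. Vcan was low there: finer clusters of 3050 control and 1724 explosion cells had 2.92 and 13.4 CPM. It is also a monocyte marker, and the monocyte marker sum of the class went from 153 to 413 CPM. The part of monocyte RNA was not tested. In monocyte-like cells all 4 hyaluronan genes tested were called higher, and in interstitial macrophage-like cells the 1 tested, Cd44, was 2.05-fold higher.

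Regulators of macrophage receptors had 3 of 16 called higher and 0 lower in alveolar macrophage-like cells, with a median of 0.55 beside 0.61. Tgfbr1 was 3.35-fold and Csf1r, the receptor for macrophage growth factor, 2.73-fold higher, Spi1, which encodes PU.1, had a ratio of 0.959, and Klf2 stood 1.93-fold lower. In interstitial macrophage-like cells 4 of 11 were called higher and 0 lower, beside 29.2% and 18.9% of all genes. They were Maf at 446 and 1589 CPM (3.56-fold, 2.85 to 4.45), Csf1r (2.14-fold), Tgfbr1 (2.62-fold) and the glucocorticoid receptor Nr3c1 (2.58-fold). In monocyte-like cells 2 of 18 were called higher and 1 lower.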

How the data were processed

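Single cells of 1 control and 1 explosion rat lung library were analysed. The deposited files hold raw UMI counts per gene and barcode, written by cellranger 7.1.0 per the file headers, and bcl2fastq 2.20 and Cell Ranger 6.1.1 appear in the submitters' processing notes, as do mRatBN7.2 and, likewise without a stated role, rn6. No annotation is named in the sources used here.

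Kept cells had 200 genes or more and no more than 25% mitochondrial UMIs, and 1853 control (8.79%) and 597 explosion (4.80%) barcodes called as doublets were left out. Cells were clustered with scanpy 1.11.5 and python-igraph 0.11.9 (2000 variable genes without the 8 receptor genes, 30 components, 15 neighbours, Leiden resolution 1, seed 1). The 29 clusters were named "-like" from 239 of 242 markers fixed for 24 classes, and 5 clusters stayed unnamed, 1 of them because ILC2 and mast cell markers led it alike. The naming procedure was chosen with the clusters in view, this last step after the results, and shares of cells depend on these rebuilt names. Macrophage-like cells were split into alveolar and interstitial, with both joined as an alternative. UMIs were summed per class and library in Python 3.11.15 (numpy 2.4.6, scipy 1.17.1, pandas 2.3.3). Comparison of a class needed 50 cells or more in each library and used exact Poisson, conditional ratio and Clopper-Pearson intervals, with a floor of 3 counts for zeros. The procedure was tested on simulated data. Figures were drawn with matplotlib 3.10.9.

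The receptor genes and the 8 pathway lists (123 genes, 121 found) were chosen with earlier results of these data known. Named genes are all 8 receptors, the 3 genes most correlated with each, the 2 highest and 2 lowest ratios of each list in alveolar macrophage-like cells among genes with at least 30 UMIs in a library, and direct partners of a receptor. Genes of the lists called in interstitial macrophage-like cells, the genes set beside the split of interstitial cells, the motifs, genes found together and single clusters were chosen after values were seen. Sequences are from RefSeq (GRCr8). Alternatives are given in the closing section.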

Additional observations from a re-analysis of the deposited data

Results flagged for a closer look

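Mrc1 and Clec7a were each at least 2-fold higher in the explosion library in some classes and at least 2-fold lower in others, which gave 9 ratios to look at again, and the difference between the classes was not tested. For Mrc1 the log2 ratio of explosion over control was 1.29 in T-like and 1.12 in interstitial macrophage-like cells, but -1.33 in blood endothelial-like, -2.36 in fibroblast-like and -2.04 in mesothelial-like cells. For Clec7a it was 1.58 in B-like and 1.36 in T-like cells, but -2.51 in fibroblast-like and -1.75 in mesothelial-like cells. The values under other settings follow.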

How the results depend on the processing

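No paired analysis was possible because each group had 1 library. Of the results compared, thinning left 45 the same, moved 51 and reversed 2. The marker gate left 48 the same, moved 45 and reversed 4. Relative to the class median, 17 were the same and 17 moved. The log2 ratios that changed sign were these. Thinning to 500 UMIs gave 1.11 for Mrc1 in blood endothelial-like and 0.22 in fibroblast-like cells. A marker gate in place of clusters gave -0.52 for Clec7a in B-like, -0.59 for Mrc1 and -0.56 for Clec7a in T-like, and -0.11 for Mrc1 in interstitial macrophage-like cells. The cause was not tested. The 4 genes called higher in interstitial macrophage-like cells had log2 ratios of 1.55 to 3.14 (Cd163), 1.87 to 3.41 (Stab1) and 1.03 to 2.39 (Lyve1) over all settings, with Mrc1 reversed under the gate.

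Counts of receptor genes called also moved. In blood endothelial-like cells the count lower (1) was 2 with totals without Scgb1a1, rRNA, ribosomal protein and hemoglobin genes, 2 at a mitochondrial limit of 10%, 2 under the gate, and 0 after thinning or with at least 500 UMIs per cell, and the count higher (0) was 2 under the gate. In monocyte-like cells the count higher (0) was 2 after thinning, 2 at resolution 2, and 1 with at least 500 UMIs per cell, with doublets kept or under the gate, and the count lower (0) was 2 with doublets kept and 1 under the gate. In interstitial macrophage-like cells the count lower (0) was 1 under the gate. In alveolar macrophage-like cells the count higher (0) was 3 with both macrophage classes joined (Cd163, Stab1 and Lyve1) and 1 at a limit of 3 expected UMIs.

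No list median moved by more than 1.5 times, a limit set after the values were seen; the opsonin list in alveolar macrophage-like cells went from 0.27 to -0.15 after thinning. The hyaluronan list gave no value after thinning. Leaving out cluster 0, 2 or 25 and splitting classes were chosen after seeing the data.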
